A study of Mus musculus with 8 samples.

Results

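The 10 genes examined here encode the minichromosome maintenance (MCM) proteins of the mouse, *Mcm2* to *Mcm10* and *Mcmdc2*. They were chosen by name, and their values were taken from a table of 24651 genes after the counts of all transcripts with the same symbol had been summed. RNA was sequenced from pairs of testes of 8 males at postnatal day 12, on a mixed strain background. There were 4 wild type males and 4 *Morc2b*-/- males, in which exon 2 of *Morc2b*, the exon with the whole coding region, had been replaced by a neomycin resistance cassette. The allele came from 1 embryonic stem cell clone, and all males were offspring of heterozygous intercrosses. The sample labels call the controls wild type, whereas the text deposited with the series calls them *Morc2b*+/-, and the labels were followed here. No source used here says which males shared a litter.

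MCM2 to MCM7 form a ring of 6 different subunits that is loaded on replication origins and becomes the core of the replicative helicase, so every cell that copies its DNA needs all of them. MCM10 helps to switch this helicase on and is not a subunit of the ring. MCM8 and MCM9 form another helicase that acts in homologous recombination, and MCMDC2 is a divergent relative that germ cells need to repair meiotic double-strand breaks and to align homologous chromosomes. Germ cells of young mice advance together, and a testis of day 12 holds Sertoli cells, dividing spermatogonia and spermatocytes that have just entered meiosis. The members were therefore compared as the replicative *Mcm2* to *Mcm7* on the one side and *Mcm8*, *Mcm9* and *Mcmdc2* on the other.

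Before any value is given, it has to be said which of the 10 genes the deposited counts can measure. Reads that overlapped more than 1 listed transcript were tallied as ambiguous and belong to no transcript, and they made up between 26.8% and 28.8% of all reads with a unique alignment. *Mcm2*, *Mcm3*, *Mcm4*, *Mcm7*, *Mcm9* and *Mcmdc2* are each listed under 1 transcript, and these 6 genes carry most of what follows. The other 4 genes, *Mcm5*, *Mcm6*, *Mcm8* and *Mcm10*, are each listed under 2 transcripts and keep only the reads that fell on a stretch particular to 1 of them. *Mcm5* had 1 count over all 8 samples. *Mcm8* had 12 to 23 counts per sample and *Mcm10* 7 to 24. *Mcm6* had 209 to 365 counts per sample, all of them under 1 of its 2 transcripts, whereas *Mcm2* had 8157 to 13260. How many reads of each gene were set aside is not known. A low count of these 4 genes therefore does not show a low level of expression, and *Mcm5* was not measured.

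In the NCBIM37 (mm9) annotation, *Mcm2* lies at chr6:88833469-88848774, *Mcm3* at chr1:20793055-20810359, *Mcm4* at chr16:15623990-15637493 and *Mcm7* at chr5:138605811-138613650, all on the minus strand. *Mcm9* lies on the minus strand at chr10:53256135-53350245. *Mcmdc2*, annotated there under the clone name 6030422M02Rik, lies on the plus strand at chr1:9898719-9932166. The annotated exons of *Mcm7* overlap exons of *Ap4m1* by 321 bases and of *Cops6* by 64 bases, both genes on the opposite strand, and *Mir25* and *Mir93* lie within annotated *Mcm7* exons as well. The strand setting of the counting is not given in the sources used here, so reads on these overlaps may have been set aside.

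Promoter sequences are shown because they are a feature that the choice of the genes did not use, and because E2F transcription factors are known to drive replication genes at the start of S phase. RefSeq promoters (GRCm38.p6, 250 bases before to 50 after a start site) were matched by symbol for 8 of the 10 genes, and *Mcm4* and *Mcmdc2* had no entry. Both strands were searched for the E2F words TTTCCCGC, TTTGGCGC, TTTCGCGC and TTTGCCGC. A match was found for *Mcm3*, *Mcm5*, *Mcm6* and *Mcm7*, which are 4 of the 5 replicative genes with an entry, and for *Mcm8*. None of these letters was present in the windows of *Mcm2*, *Mcm9* and *Mcm10*. Over all 32851 promoters of the same length, 2.26% held a match, and counted by gene the share was 2.605% of all genes with an entry and 4.30% of those tested. For *Mcm3* the matches lie 19 and 38 bases after the start site, and the first is printed. For *Mcm8* the match lies 39 bases after it. *Mcm7* has a match at position -165 and another 16 bases after the start site, and the latter is printed. In *Mcm5* and *Mcm6* a pair of matches on opposite strands overlap each other, and the printed match begins at position -153 from the start site in *Mcm5* and at -110 in *Mcm6*. *Mcm6* has a further match at -47. *Mcm7* has 2 entries, of which 1 held matches. Each line gives 30 bases of the strand of the gene, 5′ to 3′, with the matched letters in capitals.
*Mcm3*, chr1:20820275-20820304, minus strand: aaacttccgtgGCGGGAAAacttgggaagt
*Mcm5*, chr8:75109345-75109374, plus strand: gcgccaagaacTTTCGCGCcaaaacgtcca
*Mcm6*, chr1:128359797-128359826, minus strand: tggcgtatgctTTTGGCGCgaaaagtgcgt
*Mcm7*, chr5:138171849-138171878, minus strand: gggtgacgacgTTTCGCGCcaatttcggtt
*Mcm8*, chr2:132816161-132816190, plus strand: gcagaagcgcgtcatagacGCGCCAAAaaa

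STRA8 is the factor that switches on the meiotic programme, and its motif CNCCTCAG, where N is any base, was searched in the same way. It is present in 7.94% of all promoters and, counted by gene, in 9.12% of all genes with an entry and 10.8% of those tested, and among the 8 genes it was found in *Mcm6* and *Mcm9*. In *Mcm6* it begins at position -9 from the start site, on the opposite strand, and in *Mcm9* at position -132. Only the *Mcm9* window is printed. A match is a run of letters and was not tested as a binding site.
*Mcm9*, chr10:53630071-53630100, minus strand: tccgagacccgCCCCTCAGacgtcttgtcc

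The samples held 27144796 to 36941755 counts on transcripts, and each value in CPM is a count divided by the TMM-normalized size of its library. Among the 8 spermatocyte markers (*Sycp1*, *Sycp2*, *Sycp3* and others) and the 8 Sertoli cell markers all genes were tested, so both cell types that define the tissue at this age were present. The spermatocyte markers summed to between 1811 and 3102 CPM in wild type and between 1663 and 3093 CPM in *Morc2b*-/- testes. The Sertoli cell markers summed to 7200 to 8228 and 7894 to 8830 CPM, the spermatogonia markers to 458 to 636 and 509 to 633 CPM, and the Leydig cell markers to 119 to 593 and 123 to 650 CPM. Wild type replicate 1 stood apart with 249 CPM of epididymal markers (13.5 CPM or less elsewhere), and wild type replicate 1 and *Morc2b*-/- replicate 3 held 149 and 303 CPM of spermatid markers (33.4 CPM or less elsewhere). *Morc2b* itself was at 11.7, 16.2, 0.857 and 39.98 CPM in wild type replicates 1 to 4 and at 0.323, 0.270, 3.29 and 0.0688 CPM in *Morc2b*-/- replicates 1 to 4. The library labelled wild type replicate 3 was thus below the library labelled *Morc2b*-/- replicate 3.

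*Mcm3*, *Mcm4* and *Mcm7* stood at similar levels in all samples. *Mcm3* was at 360, 342, 339 and 321 CPM in wild type replicates 1 to 4 and at 323, 355, 344 and 328 CPM in *Morc2b*-/- replicates 1 to 4. *Mcm4* was at 272, 257, 253 and 245 CPM in wild type and at 252, 258, 259 and 246 CPM in *Morc2b*-/- replicates. Across all 8 samples the highest value was 1.12 times the lowest for *Mcm3* and 1.11 times for *Mcm4*, and the values of the genotypes overlapped. *Mcm7* was at 188, 169, 159 and 174 CPM in wild type and at 155, 166, 175 and 160 CPM in *Morc2b*-/- replicates, again with overlap.

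*Mcm2* had a larger spread than these 3 subunits. It was at 361, 299, 341 and 263 CPM in wild type replicates 1 to 4 and at 313, 317, 343 and 291 CPM in *Morc2b*-/- replicates 1 to 4. The lowest value of each genotype was that of replicate 4, and the *Morc2b*-/- values lay within the wild type range. Its coefficient of variation over the 8 samples was 10.1%, compared with 4.21% for *Mcm3*, 3.35% for *Mcm4* and 6.28% for *Mcm7*, while counting error alone would give 0.993% for *Mcm2*. The ratio of *Mcm2* to *Mcm3* CPM lay between 0.819 in wild type replicate 4 and 1.01 in wild type replicate 3.

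*Mcm9*, the recombination helicase subunit, had a spread close to those of *Mcm3* and *Mcm4*. It was at 44.7, 47.8, 45.5 and 41.7 CPM in wild type replicates 1 to 4 and at 46.5, 44.998, 42.9 and 42.9 CPM in *Morc2b*-/- replicates 1 to 4. Its coefficient of variation was 4.54%, against 2.65% from counting error. *Mcmdc2* had the largest spread of the 6 genes listed under 1 transcript. It was at 14.0, 20.2, 9.89 and 33.3 CPM in wild type replicates 1 to 4 and at 8.40, 14.95, 10.3 and 21.4 CPM in *Morc2b*-/- replicates 1 to 4. In both genotypes replicates 2 and 4 were above replicates 1 and 3, and the values of the genotypes overlapped. The highest sample was 3.96 times the lowest and the coefficient of variation was 49.8%, against 4.37% from counting error. In a bulk sample, a difference of this kind can come from more cells of a type or from more RNA per cell, and these cannot be told apart.

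**Figure D1:**
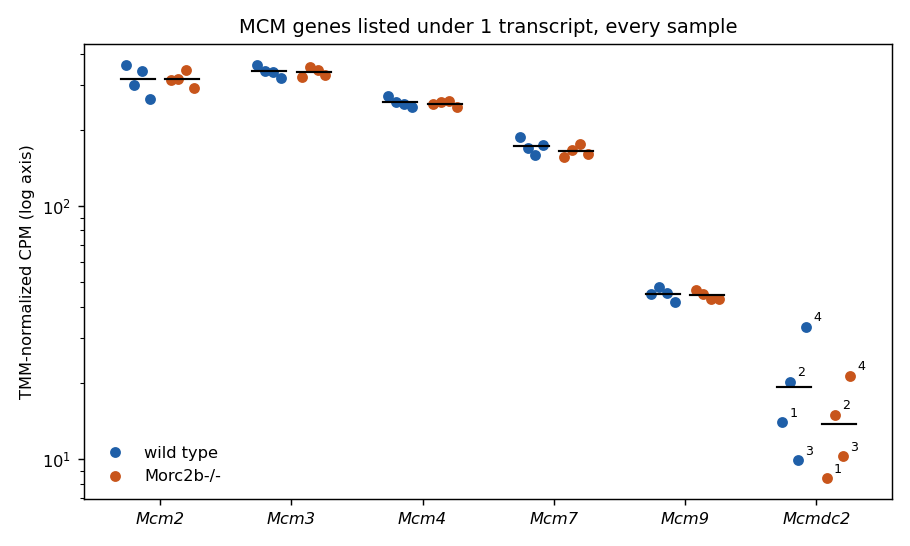
TMM-normalized CPM (log axis) of the 6 MCM genes that are listed under 1 transcript, with a point for each sample, a black line at the mean of each genotype (n = 4), wild type in blue and *Morc2b*-/- in orange. The points of *Mcm3*, *Mcm4* and *Mcm9* lie close together, whereas *Mcmdc2*, whose points carry their replicate numbers, extends from 8.40 to 33.3 CPM.

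The spread of each gene was set beside that of all 13507 genes that passed the filter on low counts. The standard deviation of log2 CPM over the 8 samples had a median of 0.19 over all tested genes and of 0.13 over the 7783 tested genes with a mean of at least 10 CPM. It was 0.048 for *Mcm4*, 0.061 for *Mcm3*, 0.065 for *Mcm9*, 0.089 for *Mcm7* and 0.15 for *Mcm2*. Of the genes with at least 10 CPM, 3.82% had a smaller standard deviation than *Mcm4*, 8.93% a smaller one than *Mcm3* and 11.4% a smaller one than *Mcm9*. For *Mcm7* and *Mcm2* this share was 26.3% and 60.7%. *Mcmdc2* was at the other end, with a standard deviation of 0.67 that exceeded those of 99.2% of the genes with at least 10 CPM.

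Levels of different genes were put in order per length, as CPM per kilobase of annotated exons, over the 8 samples. The order from high to low was *Mcm3*, *Mcm2*, *Mcm4*, *Mcm7*, *Mcm9* and *Mcmdc2*. *Mcm3* was at 113 ± 4.77 CPM per kilobase (SD, n = 8) and *Mcm2* at 93.8 ± 9.44. The ranges of these neighbours nearly touched, since *Mcm2* reached up to 107.2 and *Mcm3* began at 107.5, whereas the ranges of all later neighbours were apart on this length. *Mcm4* was at 71.1 ± 2.38 and *Mcm7* at 38.1 ± 2.39 CPM per kilobase. The value of *Mcm7* depends on the length used, because the 10 annotated transcripts of this gene together cover 4426 bases and the longest of them has 2962, which gives 56.9 ± 3.57. Its counts come from 1 listed transcript, so the length of all 10 together may be too long for them. Since reads on its overlaps may have been set aside, the value of *Mcm7* may be too low on either length.

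*Mcm9* and *Mcmdc2* were lower per length than the 4 replicative subunits that could be measured. *Mcm9* was at 9.11 ± 0.413 CPM per kilobase. *Mcmdc2* was at 2.68 ± 1.34 over its 6173 annotated bases, and at 5.13 ± 2.56 over its longest transcript of 3226 bases. Its counts come from 1 listed transcript, whereas the 6173 bases join 5 annotated ones, so the first value may be too low. Over the longest transcript its highest sample, with 10.3 CPM per kilobase, was above the *Mcm9* value of every sample. The order of *Mcm9* and *Mcmdc2* thus held for the means and not for each sample. The ring subunits *Mcm5* and *Mcm6* and also *Mcm8* lack the reads shared by their transcripts, in an unknown number, and no level per length is given for them.

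**Figure D2:**
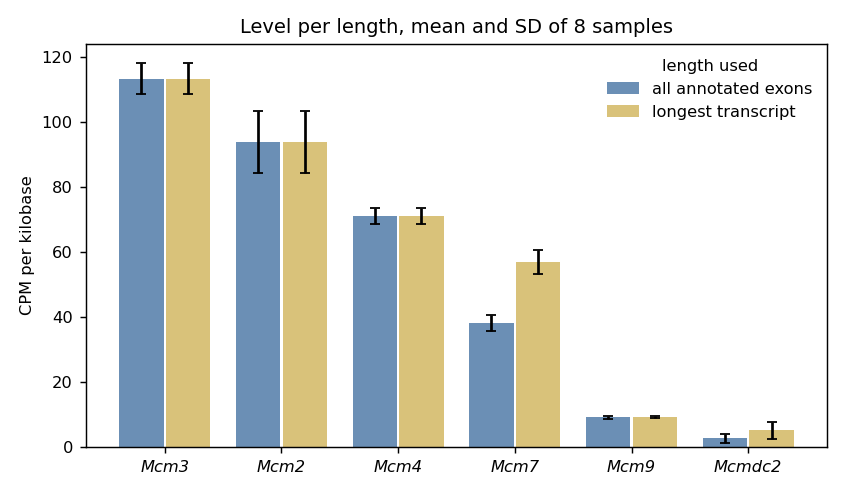
Mean CPM per kilobase of 8 samples, with the SD as error bars, for the 6 MCM genes listed under 1 transcript, divided by the length of all annotated exons (blue) or of the longest annotated transcript (yellow). The bars fall from 113 for *Mcm3* to 2.68 for *Mcmdc2*, and only *Mcm7* and *Mcmdc2* change visibly with the length.

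The question put to the samples was whether loss of *Morc2b* changed the expression of these genes. Of the 10 genes, 9 passed the filter on low counts (all but *Mcm5*), and edgeR's quasi-likelihood test called 0 of these 9 between the genotypes (adjusted p-value below 0.05). It called 0% of all 13507 tested genes. At an unadjusted p-value under 0.05 it counted 0 of the 9 genes, compared with 1.84% of all tested genes, and DESeq2 called 0 of these 9 genes and 1 gene in all. In 0 of the 9 genes were the samples of the genotypes separated without overlap, compared with 1.29% of all tested genes. The log2 fold change was below 0 for 7 genes and above 0 for 2, with a median of -0.019, and over all tested genes 49.2% were below 0 with a median of 0.0022. Every adjusted p-value of the 9 genes was 0.9998. *Morc2b* itself, with a log2 fold change of -4.09 and an unadjusted edgeR p-value of 0.0079, also had an adjusted p-value of 0.9998. The lack of calls therefore does not show that a gene was unchanged.

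For the 5 genes other than *Mcmdc2* that are listed under 1 transcript, the intervals around the difference were narrow. As a log2 fold change, *Morc2b*-/- over wild type, the difference was 0.00011 for *Mcm2* (95% interval -0.22 to 0.22), -0.014 for *Mcm3* (-0.14 to 0.11) and -0.016 for *Mcm4* (-0.13 to 0.094). It was -0.074 for *Mcm7* (-0.22 to 0.070) and -0.019 for *Mcm9* (-0.17 to 0.13). For *Mcm3*, *Mcm4* and *Mcm9* the interval of the ratio of the genotypes lay between 0.889 and 1.10, so a larger difference lay outside the 95% intervals. Exact two-sided permutation tests over all 70 assignments of the genotype labels gave p = 0.943 for *Mcm2*, 0.857 for *Mcm3*, 0.80 for *Mcm4*, 0.314 for *Mcm7* and 0.771 for *Mcm9*, where the smallest value this design allows is 0.0286.

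For *Mcmdc2* the interval was wide. Wild type testes had a mean of 19.3 ± 10.2 CPM and *Morc2b*-/- testes a mean of 13.8 ± 5.79 CPM (SD, n = 4 each). The log2 fold change was -0.49 with a standard error of 0.40 (95% interval -1.39 to 0.40). By the exact permutation test, two-sided, p was 0.429. A ratio of the genotypes anywhere from 0.382 to 1.32 therefore lay within the interval, and neither a marked decrease nor equality could be told from these samples. Single samples moved the log2 fold change, to -0.10 without wild type replicate 4 and to -0.71 without wild type replicate 3. It was -0.32 without *Morc2b*-/- replicate 1 and -0.79 without *Morc2b*-/- replicate 4.

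The partly counted genes gave little information on the genotypes. *Mcm6* was at 8.10, 7.67, 7.79 and 11.5 CPM in wild type and at 9.89, 7.46, 9.05 and 10.1 CPM in *Morc2b*-/- replicates 1 to 4, and its log2 fold change was 0.059 (95% interval -0.31 to 0.43). Of *Mcm8*, wild type replicates 1 to 4 held 14, 20, 13 and 23 counts and their *Morc2b*-/- counterparts 12, 18, 23 and 18. Its coefficient of variation of 25.9% was close to the 23.8% that counting error alone would give, and its log2 fold change of -0.089 had an interval from -0.75 to 0.57. Of *Mcm10*, the helicase activator, wild type replicates 1 to 4 held 16, 12, 11 and 24 counts and their *Morc2b*-/- counterparts 12, 7, 7 and 16. The exact Poisson 95% intervals of its highest and lowest counts, 15.4 to 35.7 and 2.81 to 14.4, cover counting error only. Its log2 fold change was -0.63 (95% interval -1.52 to 0.26, exact permutation p = 0.20), and from these counts a difference could not be shown. Without wild type replicate 4 it was -0.37 and without *Morc2b*-/- replicate 4 it was -0.97.

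**Figure D3:**
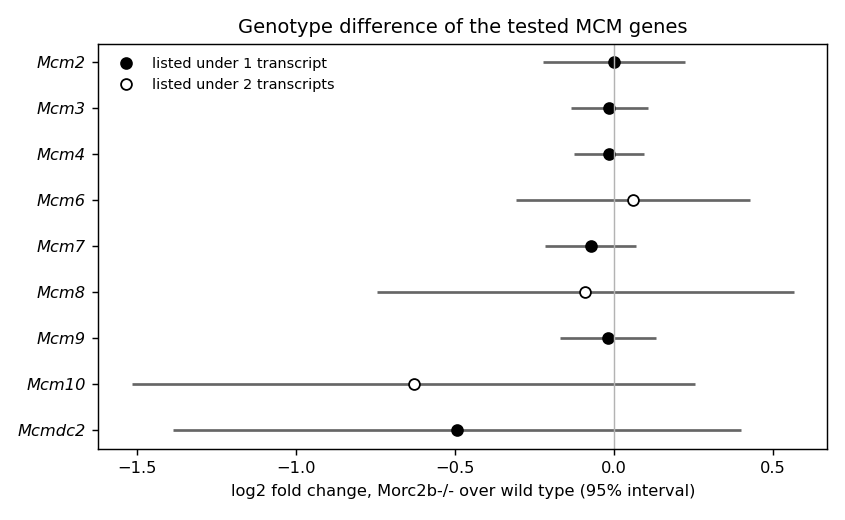
Log2 fold change of *Morc2b*-/- over wild type for the 9 tested MCM genes, with 95% intervals from edgeR as bars, filled points for genes listed under 1 transcript and open points for genes listed under 2. All 9 intervals include 0, with narrow bars for *Mcm3* and *Mcm4* and wide bars for *Mcm8*, *Mcm10* and *Mcmdc2*.

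The replicative genes were then set against the others within each sample. The mean log2 CPM of *Mcm2* to *Mcm7* minus that of *Mcm8*, *Mcm9* and *Mcmdc2* was 2.57, 1.97, 2.55 and 1.85 in wild type replicates 1 to 4 and 2.71, 2.42, 2.48 and 2.10 in *Morc2b*-/- replicates 1 to 4. These values include the genes that lack the reads shared by their transcripts, and no value of this comparison is corrected for length. *Mcm5*, with 1 count in all, is among them. Its log2 CPM rests almost wholly on the prior count of 2, which lowers the mean of the replicative genes. With the 6 genes listed under 1 transcript only, *Mcm2*, *Mcm3*, *Mcm4* and *Mcm7* against *Mcm9* and *Mcmdc2*, the difference was 3.51, 3.05, 3.62 and 2.72 in wild type and 3.66, 3.34, 3.68 and 3.03 in *Morc2b*-/- replicates. Its means were 3.22 ± 0.42 for wild type and 3.43 ± 0.31 for *Morc2b*-/- testes (SD, n = 4 each), and the shift of 0.20 was smaller than either SD. The samples of the genotypes overlapped, and replicate 4 was the lowest in each. Within the group of *Mcm9* and *Mcmdc2* the ratio of the former to the latter in CPM extended from 1.25 in wild type replicate 4 to 5.53 in *Morc2b*-/- replicate 1, so these genes did not keep a fixed proportion to each other.

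The relations of the members to each other and to cell type markers were examined on the log2 CPM scale over the 8 samples, with *Mcm2* and *Mcmdc2* as the genes that the others were set against. Of 18 planned relations, 17 could be computed, as *Mcm5* had no counts to use, and p-values from exact permutation over the 40320 pairings were adjusted over the 17 by the Benjamini-Hochberg method. Only 1 relation passed an adjusted p-value of 0.05, that of *Mcmdc2* with the summed CPM of the 8 spermatocyte markers. The share of all tested genes with such a relation to these markers was not counted, so it is not shown to be particular to *Mcmdc2*.

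*Mcmdc2* and the spermatocyte markers had a Pearson r of 0.956 (n = 8, exact permutation p = 9.92e-05, adjusted p = 0.00169) and a Spearman rho of 0.976 (exact permutation p = 0.000397, adjusted p = 0.00675). In wild type replicates 1 to 4 the markers summed to 2081, 2832, 1811 and 3102 CPM, and in *Morc2b*-/- replicates 1 to 4 to 1663, 2213, 1680 and 3093 CPM. The samples with the most marker RNA, replicate 4 of each genotype, were thus also those with the most *Mcmdc2* RNA. Without the 2 samples farthest from the median of *Mcmdc2* the r was 0.982, and with values centred on their genotype mean it was 0.954 (exact permutation, adjusted p = 0.00928). *Sycp2*, an axial element protein of the synaptonemal complex, made up 30.7% of the marker sum, and without it the r was 0.958 (n = 8, exact permutation p = 0.000471).

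The spermatocyte markers themselves were compared between the genotypes. Of the 8 spermatocyte markers, 0 passed the test in either direction, and 6 of the 8 log2 fold changes were below 0, with a median of -0.066. *Sycp2* and *Sycp1*, with 30.7% and 22.6% of the sum, had log2 fold changes of -0.30 and -0.34, further from 0 than the median. Their standard errors were 0.29 and 0.27. *Sycp2l*, at a mean of 0.609 CPM, had -0.47 (standard error 0.27). The other markers had -0.082 (*Sycp3*), -0.050 (*Syce1*), -0.00049 (*Hormad1*), 0.0041 (*Prdm9*) and 0.024 (*Meioc*). Expressed per 1000 CPM of all 8 spermatocyte markers, *Mcmdc2* was at 6.73, 7.14, 5.46 and 10.7 CPM in wild type and at 5.05, 6.76, 6.10 and 6.91 CPM in *Morc2b*-/- replicates 1 to 4. Wild type replicate 4 remained the highest sample and the genotypes overlapped. On the log2 scale the difference was then -0.24 (exact two-sided permutation test, p = 0.371), in place of -0.44 before the division.

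No relation of *Mcm2* passed the adjusted threshold, and its values with the meiotic measures were negative. With the spermatocyte markers it had a Pearson r of -0.770 (n = 8, exact permutation p = 0.0271, adjusted p = 0.115) and a Spearman rho of -0.690 (exact permutation p = 0.0694, adjusted p = 0.204). With *Mcmdc2* it had an r of -0.775 (n = 8, exact permutation p = 0.0243, adjusted p = 0.115) and a rho of -0.667 (exact permutation p = 0.0831, adjusted p = 0.204). Among the ring subunits, its r with *Mcm4* was 0.823 (exact permutation p = 0.0128, adjusted p = 0.109) with a rho of 0.881 (exact permutation p = 0.00724, adjusted p = 0.0616). Its r with *Mcm3* was 0.713 (exact permutation p = 0.0479, adjusted p = 0.136) with a rho of 0.786 (exact permutation p = 0.0279, adjusted p = 0.158). Without the 2 samples farthest from the median of *Mcm2*, wild type replicates 1 and 4, r was 0.561 with *Mcm4*, 0.331 with *Mcm3*, -0.842 with the spermatocyte markers and -0.770 with *Mcmdc2*. *Mcm9* and *Mcmdc2*, the pair of non-replicative genes with enough counts, had an r of -0.438 (n = 8, exact permutation p = 0.276, adjusted p = 0.39) and a rho of -0.548 (exact permutation p = 0.171, adjusted p = 0.264), and the r was 0.209 without *Morc2b*-/- replicate 1 and wild type replicate 4.

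**Figure D4:**
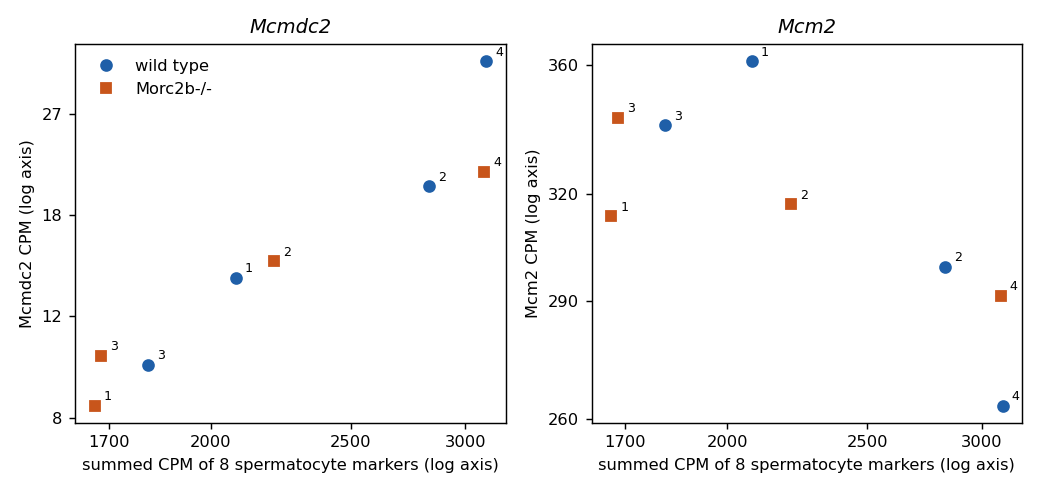
CPM of *Mcmdc2* (left) and *Mcm2* (right) against the summed CPM of 8 spermatocyte markers in each sample, all on log axes, with wild type as blue circles, *Morc2b*-/- as orange squares and replicate numbers beside the points. *Mcmdc2* climbs from 8.40 CPM at 1663 CPM of markers to 33.3 CPM at 3102, and *Mcm2* lies at 263 CPM in the sample with the most marker RNA.

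The genes whose values were most like those of the members were looked up among 11545 tested genes with a mean of at least 1 CPM, as a description with no test. Nearest to *Mcmdc2* were *4933433G15Rik* (Pearson r of log2 CPM over 8 samples 0.994), *Socs7* (0.994), a gene of the suppressor of cytokine signalling family, and *Gm5134* (0.991). *Socs7* lay between 218 CPM in *Morc2b*-/- replicate 1 and 294 CPM in wild type replicate 4. Nearest to the mean of *Mcm2* to *Mcm7* were *Hadha* (0.955), a mitochondrial enzyme of fatty acid oxidation, *Ap1s1* (0.942), a clathrin adaptor subunit, and *Ppp2r5c* (0.929), a regulatory subunit of protein phosphatase 2A. That mean holds *Mcm5* and *Mcm6*, which lack the reads shared by their transcripts, and the value of *Mcm5* rests almost wholly on the prior count. With the 4 fully listed subunits *Mcm2*, *Mcm3*, *Mcm4* and *Mcm7*, a choice made after the values were seen, the nearest gene was *Vps72* (0.993), a subunit of chromatin remodelling complexes.

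The other genes of DNA replication were examined by lists. The 10 genes listed under origin licensing, the loading of the MCM ring and its control, are the ORC subunits, *Cdc6*, *Cdt1*, *Gmnn* and *Mcmbp*. Of these, 7 were tested and 0 were called in either direction. Their log2 fold changes ran from -0.047 for *Orc5* to 0.048 for *Orc1*, both subunits of the origin recognition complex. *Orc1* was at 89.3 ± 6.49 CPM in wild type testes and at 92.3 ± 5.28 CPM in those without *Morc2b* (SD, n = 4 each). *Mcmbp*, which binds MCM subunits outside the ring, was at 339 ± 9.69 and 350.04 ± 4.36 CPM (SD, n = 4 each), a log2 fold change of 0.044. The median standard deviation of log2 CPM of these genes was 0.13, and their sum lay between 643 and 673 CPM in every sample. *Orc2*, *Orc3* and *Orc6* had 1 count or fewer in all and were not measured.

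Of the 12 genes of origin firing and of the active helicase (*Cdc45*, the GINS subunits and others), 10 were tested and 0 were called. *Dbf4*, with 1 count in all, and *Cdc7*, with 26, were not tested. The log2 fold change was lowest for *Gins1* (-0.14, standard error 0.15) and highest for *Gins4* (0.044, standard error 0.058), both members of the GINS complex that joins the ring. Of the 17 replication fork genes, 13 were tested and 0 were called. *Pola2*, a subunit of the polymerase that starts new strands, had the lowest value in that list (-0.10), and *Lig1*, the ligase that joins Okazaki fragments, the highest (0.34, standard error 0.26). *Lig1* had 207 counts in all, so its value rests on few reads.

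Of 6 genes that act with MCM8 and MCM9 in recombination (*Hrob*, RPA subunits, *Brca2* and others), 5 were tested and 0 were called. *Hrob*, whose protein brings the MCM8-MCM9 helicase to sites of repair, was at 39.9 ± 3.46 CPM in wild type testes and at 40.1 ± 4.54 CPM in those without *Morc2b* (SD, n = 4 each), with a log2 fold change of 0.0079. *Brca2*, which acts in homologous recombination, had the lowest log2 fold change of the list (-0.27, standard error 0.42), from 132 counts in all.

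The meiotic recombination genes, the list closest in function to *Mcmdc2*, had a wide spread. Of the 15 genes of this list, 11 were found in the table under these symbols, 8 were tested and 0 were called, with log2 fold changes from -0.14 for *Meiob* to 0.11 for *Msh4*. The median standard deviation of log2 CPM over the 8 samples was 0.41 in this list, compared with 0.19 over all tested genes. *Meiob*, a single-stranded DNA binding protein of meiotic recombination, was at 60.4, 90.7, 36.1 and 103.7 CPM in wild type replicates 1 to 4 and at 31.1, 81.7, 49.0 and 101.9 CPM in *Morc2b*-/- replicates 1 to 4. As for *Mcmdc2*, replicates 2 and 4 were above replicates 1 and 3 in both genotypes. The proliferation markers (*Mki67*, *Top2a* and others) summed to 1932 to 2395 CPM in wild type and to 1796 to 2151 CPM in *Morc2b*-/- testes, with 0 of 6 called. What the spermatocyte markers that moved with *Mcmdc2* contribute to its spread was not tested.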

How the data were processed

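Total RNA of 8 testis pairs was made into stranded mRNA libraries by the authors. Their alignments came from Tophat at its defaults on NCBI37/mm9, after read cleaning. The deposited values are raw counts per RefSeq transcript, not pooled and not normalized. The counting program and its strand setting are not given in the sources used here. The 5 tally lines have the form of htseq-count and were left out of all totals. Reads on more than 1 transcript, as well as reads without a unique alignment, are in no transcript's count.

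Of 35819 transcripts, 35522 were matched to a symbol by accession in a GRCm38.p6 RefSeq table, used for names only. The 297 others (0.484% of counts) were kept as units. Counts were summed by symbol. All pairs of samples differed by more than counting error (chi-square per degree of freedom of 5.67 or more).

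The genotype comparison used edgeR 4.0.16 under R 4.3.3 (TMM, filterByExpr, glmQLFit, glmQLFTest, Benjamini-Hochberg, threshold 0.05), without covariates. The paper used Cuffdiff on FPKM, which cannot be run on counts. Exact tests used log2 CPM with a prior count of 2. P-values measure the spread between these 8 males. The fit was tested on simulated counts. Alternatives were RLE, DESeq2 1.42.0, limma-voom (limma 3.58.1), other filters, the replicate number as a block, transcripts as units, other lengths and priors, and leaving out samples. Division by the spermatocyte markers, leaving out the top marker, the genes listed under 1 transcript and the longest coding transcript as length were added after the data were seen.

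The genes, lists and tests were chosen with earlier results of these data known. Genes named are the 10 members, *Morc2b*, *Hrob*, *Mcmbp*, the highest and lowest log2 fold change of each pathway list, and the 3 tested genes most correlated with *Mcmdc2* and with the mean of *Mcm2* to *Mcm7*. *Vps72*, *Sycp2* and genes named for lists or low counts fall outside that rule, and 1 gene that it names is not reported here. Gene positions and lengths are from GENCODE vM1 on NCBIM37. Protein sequences were not used here.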

Additional observations from a re-analysis of the deposited data

Results flagged for a closer look

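The 9 MCM genes with counts, taken in each genotype, made 18 groups of samples. In a pair of these groups the highest sample stood apart from the other 3, where chance alone would set apart about 1 group in 20 at either end. Both cases are of the same sample, so they are not independent. *Mcm6* was at 11.5 CPM in wild type replicate 4, compared with 7.67 to 8.10 CPM in the other wild type samples. *Mcm10* was at 0.754 CPM in wild type replicate 4, compared with 0.393 to 0.440 CPM in the other wild type samples. Both values rest on reads that each fell on only 1 of the listed transcripts of the gene. In that sample these were 365 counts for *Mcm6*, all under 1 transcript, and 24 for *Mcm10*, 21 under 1 transcript and 3 under the other.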

How the results depend on the processing

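The count of genes called between the genotypes was 0 under every alternative except DESeq2, which called 1, and no MCM gene was called under any of them. The replicate numbers were not shown to pair the samples, as deviations of same-numbered samples had correlations from -0.322 to 0.453 (mean 0.0548, 4 pairs) and those of different-numbered samples from -0.498 to 0.614. With a replicate block in the fit, edgeR counted 572 genes at an unadjusted p-value under 0.05 in place of 249. The blocked log2 fold change of *Mcmdc2* was -0.44 with an unadjusted edgeR p-value of 0.0199 (0.244 without the block) and an adjusted p-value of 0.985, and the exact sign-flip permutation test of its 4 pairs gave p = 0.25, where the smallest possible is 0.125. The block changed no call at an adjusted p-value of 0.05, and at an unadjusted 0.05 it counted 1 of the 9 MCM genes, *Mcmdc2*, in place of 0. For *Mcm2*, whose difference was close to 0, the log2 fold change was -0.0035 with RLE, -0.0068 with at least 10 counts in every sample, -0.0028 with transcripts as units and -0.0014 with DESeq2. Without wild type replicate 1 and *Morc2b*-/- replicate 3 together, it was 8.81e-05 for *Mcm3*, -0.51 for *Mcmdc2* and -0.37 for *Mcm8*, in place of -0.089 for the last.

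With 1 sample left out at a time, edgeR log2 fold changes ranged from -0.081 to 0.071 for *Mcm2*, -0.044 to 0.014 for *Mcm3*, -0.041 to 0.013 for *Mcm4*, 0.0034 to 0.21 for *Mcm6*, -0.11 to -0.030 for *Mcm7*, -0.25 to 0.046 for *Mcm8*, -0.056 to 0.014 for *Mcm9*, -0.97 to -0.37 for *Mcm10* and -0.79 to -0.10 for *Mcmdc2*. The differences in mean log2 CPM ranged from -0.076 to 0.076 for *Mcm2*, -0.042 to 0.013 for *Mcm3*, -0.037 to 0.013 for *Mcm4*, -0.23 to 0.064 for *Mcm8*, -0.053 to 0.012 for *Mcm9* and -0.83 to -0.40 for *Mcm10*. The last had an exact permutation p of 0.0286 without *Morc2b*-/- replicate 4, in place of 0.20 with all samples. Of the exact permutation p-values of all members with 1 sample left out, this was the smallest. It was not adjusted for that choice, and *Mcm10* had only 7 to 24 counts per sample. The replicative minus other MCM difference was 4.09 in wild type and 4.21 in *Morc2b*-/- testes from summed CPM, 3.22 and 3.43 from the genes listed under 1 transcript, and 2.23 and 2.43 as planned. The planned values include *Mcm5*, whose log2 CPM rests almost wholly on the prior count. Per kilobase of the longest transcript, and likewise of the longest coding transcript, *Mcm7* was at 56.9 and *Mcmdc2* at 5.13 CPM. Without the 2 samples farthest from the median, the r of *Mcm2* with *Mcm9* was -0.192, of *Mcmdc2* with *Mcm9* 0.209 and of *Mcm2* with the Sertoli cell markers 0.115. With genotype-centred values, the r of *Mcmdc2* with the Sertoli cell markers was 0.019. For *Mcm5*, *Mcm6*, *Mcm8* and *Mcm10* the reads set aside as ambiguous limit every value. The cause of these changes was not tested.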

Other observations

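Among the wild type samples, *Mcmdc2* and *Morc2b* stood in the same order. From low to high this was replicate 3 (9.89 and 0.857 CPM), replicate 1 (14.0 and 11.7 CPM), replicate 2 (20.2 and 16.2 CPM) and replicate 4 (33.3 and 39.98 CPM). The spermatocyte marker sum (1811, 2081, 2832 and 3102 CPM) and *Meiob* (36.1, 60.4, 90.7 and 103.7 CPM) had this order as well, so it was not particular to *Mcmdc2* and *Morc2b*. With 4 samples no correlation was tested.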
